A study of Mus musculus with 6 samples.

Results

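The 10 genes considered here carry or adjust the output of the circadian clock. They were measured in splenic leukaemia cells from mice treated with an inhibitor of casein kinase 1 or with vehicle. The genes were chosen by name from the 54232 genes counted: the REV-ERB receptors Nr1d1 and Nr1d2, the receptor Rora, the PAR bZIP factors Dbp, Tef and Hlf, their antagonist Nfil3, the repressor Ciart, and the DEC factors Bhlhe40 and Bhlhe41. All 10 genes were found, and 7 had enough counts to be tested between the groups. Nr1d1, Hlf and Rora did not.

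The cells came from the Eµ-TCL1 model of chronic lymphocytic leukaemia (CLL), in which the TCL1 oncogene is driven in B cells by an immunoglobulin enhancer. Mononuclear cells from spleens of Eµ-TCL1 mice with terminal disease were injected into the peritoneum of wild-type C57BL/6J recipients, which keep their own normal B cells. Both groups therefore carried the same kind of transferred leukaemia. The CK1i group (3 libraries) was dosed orally with PF-670462, which blocks the delta and epsilon forms of casein kinase 1, at 50 mg/kg in 10% kolliphor/PBS, and the CTRL group (3 libraries) received the vehicle alone. Dosing began 5 days after transfer, ran in blocks of 5 days with 2 days of rest, and lasted 8 weeks. Leukaemic B cells were sorted from spleen before RNA was taken. The age of the mice and the time of day at which spleens were collected are not stated in the sources used here. Nothing in the labels ties a library to a separate mouse. The p-values therefore measure only how far these libraries spread, which may be technical. Per-library values below are given in the order of replicates 1, 2 and 3.

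The clock is a feedback loop of transcription. CLOCK and BMAL1 (the product of Arntl) activate genes through E-box elements, among them the Per and Cry genes, whose products repress them, and the output genes described here. REV-ERB receptors repress and ROR receptors activate through a shared element, the RRE, and so adjust Arntl and Nfil3. DBP, TEF and HLF activate through the D-box, which NFIL3 represses. DEC1 and DEC2, encoded by Bhlhe40 and Bhlhe41, bind E-boxes as repressors, and CIART (CHRONO) represses CLOCK and BMAL1. Casein kinase 1 delta and epsilon phosphorylate the PER proteins and set the speed of the loop. Apart from the clock, DEC2 is required for the B-1a subset of B cells, the CD5-positive cells that this leukaemia resembles, and NFIL3 and RORA are known for the development of innate lymphoid cells.

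Promoter sequences were available from RefSeq (GRCm38.p6) for 9 of the 10 genes, in 10 windows that run from 250 bases before to 50 bases after a start of transcription. The E-box, CACGTG, was present in the windows of Tef, Ciart and Bhlhe41. These 4 windows are printed because they show where the element through which CLOCK and BMAL1 act lies in 3 of the genes measured. Capitals mark each E-box.

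Tef promoter (upstream start), chr15:81802423-81802722, plus strand: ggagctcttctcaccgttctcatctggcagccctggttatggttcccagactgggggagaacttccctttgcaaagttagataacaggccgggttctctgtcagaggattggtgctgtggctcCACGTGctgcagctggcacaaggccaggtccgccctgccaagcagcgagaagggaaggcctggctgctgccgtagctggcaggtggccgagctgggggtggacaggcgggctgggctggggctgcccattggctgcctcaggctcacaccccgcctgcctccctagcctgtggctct
Tef promoter (downstream start), chr15:81811164-81811463, plus strand: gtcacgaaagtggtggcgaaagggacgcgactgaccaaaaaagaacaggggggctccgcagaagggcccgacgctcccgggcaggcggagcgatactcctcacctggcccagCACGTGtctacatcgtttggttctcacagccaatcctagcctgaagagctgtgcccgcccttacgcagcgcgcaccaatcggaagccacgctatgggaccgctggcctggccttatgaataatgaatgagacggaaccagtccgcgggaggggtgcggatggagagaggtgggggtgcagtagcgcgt
Ciart promoter, chr3:95882179-95882478, minus strand: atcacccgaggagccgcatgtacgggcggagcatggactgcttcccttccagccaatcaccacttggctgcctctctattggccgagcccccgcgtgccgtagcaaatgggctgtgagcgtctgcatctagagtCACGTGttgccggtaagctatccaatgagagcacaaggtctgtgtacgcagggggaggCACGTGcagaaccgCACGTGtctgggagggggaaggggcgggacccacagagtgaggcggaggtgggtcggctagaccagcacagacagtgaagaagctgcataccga
Bhlhe41 promoter, chr6:145865371-145865670, minus strand: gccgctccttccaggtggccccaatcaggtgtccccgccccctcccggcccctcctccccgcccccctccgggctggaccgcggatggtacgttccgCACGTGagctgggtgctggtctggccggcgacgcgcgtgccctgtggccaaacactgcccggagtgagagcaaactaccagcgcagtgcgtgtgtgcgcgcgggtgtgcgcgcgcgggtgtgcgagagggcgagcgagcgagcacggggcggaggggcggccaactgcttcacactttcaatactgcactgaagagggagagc

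The Ciart window held 3 E-boxes, beginning 116, 58 and 44 bases before the start. Each Tef window held 1, beginning 127 bases before the upstream start and 138 bases before the downstream start. The E-box of Bhlhe41 began 153 bases before its start. CACGTG reads the same on both strands, and it was present in 7.15% of the 32851 mouse windows of the same length. The variant CACGTT was found on the opposite strand of the Nr1d1 window, where 4.68% of all windows held it on either strand. A core of the RRE (TAGGTCA or TGGGTCA, both strands) was found in the Nfil3 window, on the strand opposite to the gene, and in 6.45% of all windows. The D-boxes TTATGTAA and TTACGTAA were found in none of the 10 windows and in 1.06% of all windows. No match to one motif overlapped a match to another, and a match of letters is not a measured binding site.

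The libraries held between 2472064 and 3105137 counts. A single count corresponded to 0.326 to 0.401 CPM, the unit of level used here, which scales counts to a common library size (TMM). Every pair of libraries differed by more than sampling noise, and CTRL replicate 1 stood apart on the first principal component. All 9 B-cell markers were detected, with summed levels of 5867 to 6304 CPM with the inhibitor and 5905 to 6140 CPM with vehicle. Summed T-cell markers were 119 to 176 and 109 to 132 CPM, and summed monocyte and macrophage markers 36.2 to 46.4 and 27.7 to 30.7 CPM, the latter without overlap. Most of the T-cell sum was Lck, at 104 to 153 CPM, and most of the monocyte and macrophage sum was Cd68, at 20.9 to 34.9 CPM. Neutrophil, erythroid and platelet markers each summed to at most 5.68 CPM in any library. Summed plasma cell markers were 1029 CPM in CK1i replicate 2 and 1720 to 2538 CPM in the other libraries. The part of such cells in the values below was not tested. In bulk samples fewer cells of a type and less RNA per cell cannot be told apart.

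The members differed greatly in level. Bhlhe41 had a mean of 575 CPM over the 6 libraries and ranked 180 among the 10067 genes tested. Tef followed with 44.6 CPM and Nr1d2 with 25.5 CPM. Dbp, Ciart, Nfil3 and Bhlhe40 had 10.4, 9.44, 8.68 and 5.94 CPM. The order of these last 4 is not fixed, since the ranges of neighbouring genes overlapped, and Dbp lay above Ciart in only 3 of 6 libraries. The ranges of Tef and Nr1d2 also overlapped, although Tef was the higher of the pair in all 6 libraries. Rora had 0.714 CPM and Nr1d1 0.237 CPM, and Hlf had no count. Libraries of this kind read the 3' end of a transcript, so a count does not grow with length as in full-length libraries. Divided by exon length, Bhlhe41 still led, with 85.5 CPM per kb, ahead of Tef with 5.67 and Nr1d2 with 4.71 CPM per kb.

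**Figure D1:**
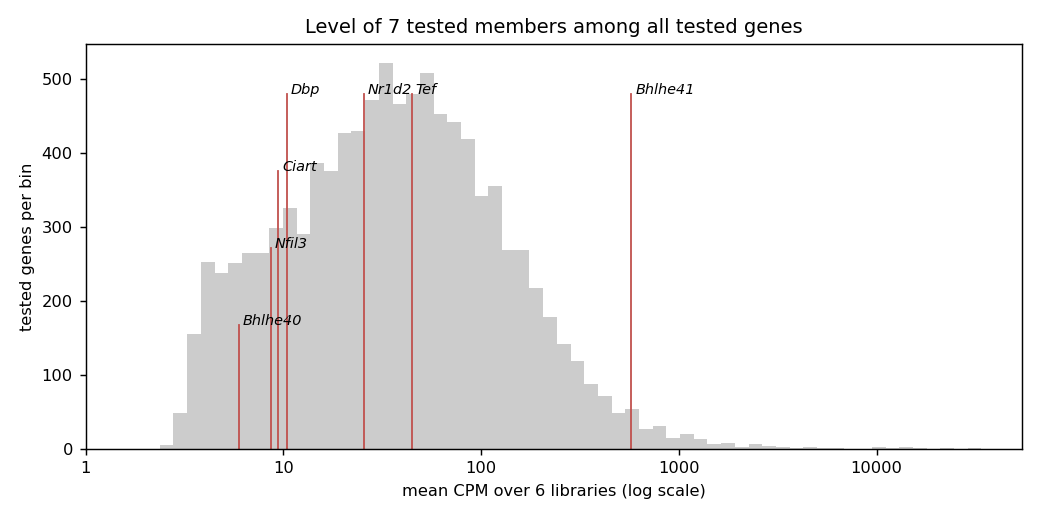
Histogram of the mean level of the 10067 tested genes over the 6 libraries (x axis, CPM on a log scale; y axis, genes per bin), with lines at the 7 tested clock output and accessory genes. Bhlhe41, at 575 CPM, lies in the upper tail, and Dbp, Ciart, Nfil3 and Bhlhe40 lie between 5.94 and 10.4 CPM in the lower part.

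Between the groups, edgeR's quasi-likelihood test called none of the 7 tested members, and none of the 10067 tested genes passed (0% called; smallest adjusted p 0.224). DESeq2 and limma-voom called 0 of the members as well. In each of the 3 tools 1 member, Tef, had an unadjusted p under 0.05. In edgeR 4.70% of all tested genes did, and 2.00% did so with a lower level in CK1i. Of the 7 members, 6 had a log2 fold change below 0, against 51.2% of all tested genes, and the median was -0.17 against -0.0055 over all tested genes. Without CK1i replicate 2 the count was 4 of 7 and the median -0.037, and without CK1i replicate 1 the median was -0.060. In no tested member did the groups lie apart, where 9.70% of all tested genes had groups that did not overlap, 4.48% with CK1i lower and 5.22% with CK1i higher. Without CTRL replicate 1, the library that stood apart, the groups did not overlap for 3 members, lower in CK1i for Tef and Bhlhe41 and higher for Nr1d2, where 21.5% of all genes tested in that fit had such groups. Without CK1i replicate 3 this held for 1 member, Tef, against 18.1% of all genes.

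**Figure D2:**
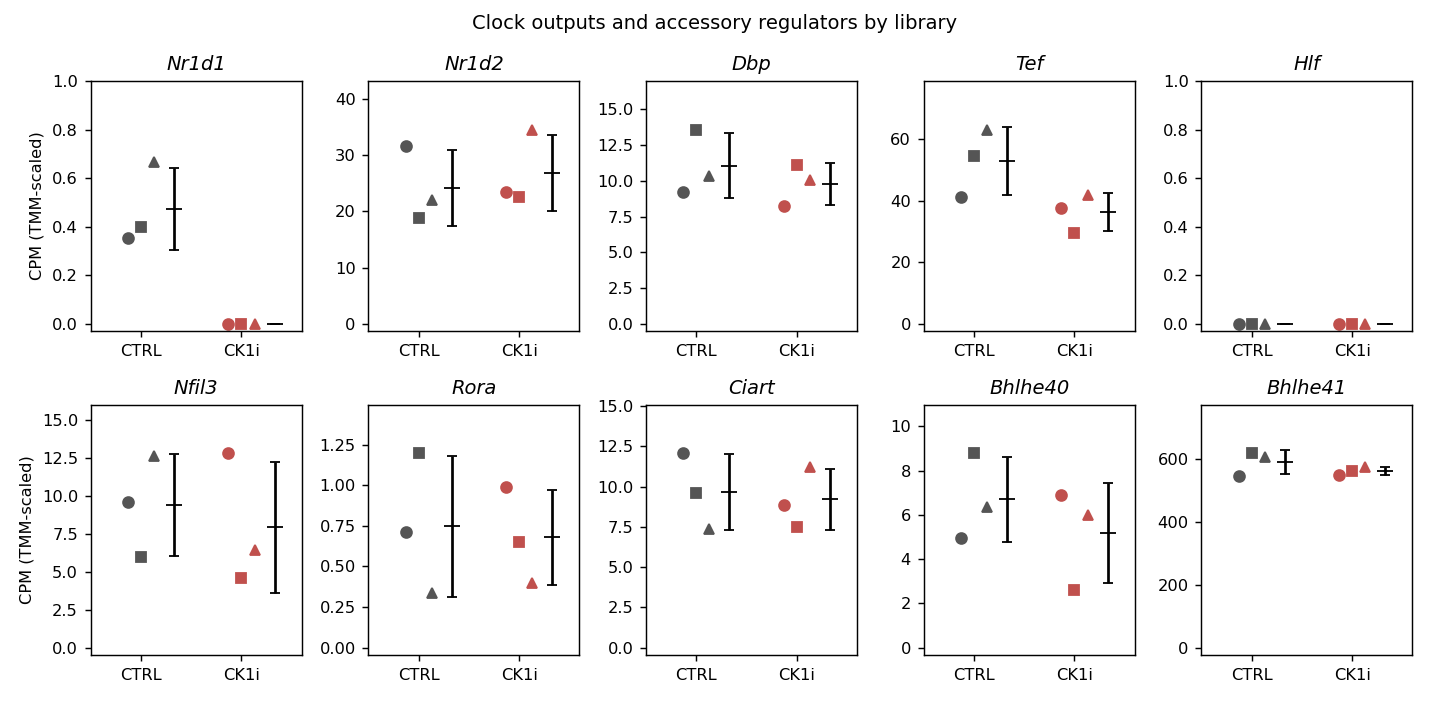
Level of each of the 10 genes in CPM (y axis, from 0, a separate scale for each gene) in the CTRL and CK1i libraries (x axis); circles, squares and triangles are replicates 1, 2 and 3, and the bar to the right of each group is its mean ± SD (n = 3). The points of the groups overlap for every gene but Nr1d1, where 4 counts in all make the difference, and Hlf, which is at 0 throughout.

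Among the D-box activators, Tef was the gene with the largest difference. Tef (ENSMUSG00000022389) lies on the plus strand at chr15:81802421-81826863. It had 37.5, 29.7 and 41.7 CPM in the CK1i libraries against 41.2, 54.7 and 63.1 CPM in the CTRL libraries. CK1i replicates 1 and 2 lay below every CTRL library, and the groups overlapped only through CK1i replicate 3 and CTRL replicate 1. The means were 36.3 ± 6.10 CPM for CK1i and 53.0 ± 11.1 CPM for CTRL (SD, n = 3). The log2 fold change was -0.55 ± 0.19 (SE; 95% interval -0.96 to -0.13; edgeR adjusted p = 0.929). Tef was thus 1.46 times as high in CTRL as in CK1i. By its unadjusted edgeR p of 0.013 it ranked 141 among all tested genes. A two-sided exact permutation test of the library labels gave p = 0.2, where 3 against 3 libraries cannot give less than 0.1.

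Leaving out 1 library moved the Tef value between -0.71, without CTRL replicate 1, and -0.40, without CTRL replicate 3. Its edgeR p was 0.0019 without CTRL replicate 1, the library that stood apart, and its adjusted p was then 0.594. Without CTRL replicate 3 the p was 0.073, and without CK1i replicate 2 it was 0.068. The direction held in these fits and in all other alternatives run, and in none did the adjusted p pass. An annotated antisense gene that shares 193 exonic bases with Tef held 2 counts in all.

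Dbp (ENSMUSG00000059824; chr7:45705088-45710203, plus strand), the D-site binding protein and in many tissues one of the genes with the widest daily swing, was low. It had 25, 34 and 25 counts in the CK1i libraries against 26, 34 and 31 in the CTRL libraries. These are 8.23, 11.1 and 10.0 CPM against 9.23, 13.6 and 10.3 CPM, and the groups overlapped. The log2 fold change was -0.17 ± 0.27 (SE; 95% interval -0.75 to 0.41; edgeR adjusted p = 0.999). A 2-fold difference in either direction lies outside that interval. Dbp shares 539 exonic bases with Sphk2, a sphingosine kinase gene on the opposite strand that held 1205 counts. Since no source states the strand setting of the counting, the Dbp count is uncertain. For Sphk2 the fold change, on the log2 scale, was 0.098 ± 0.15 (SE; edgeR adjusted p = 0.999).

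Hlf (ENSMUSG00000003949; chr11:90336536-90390895, minus strand), the third PAR bZIP gene, which is known from liver and blood stem cells, had 0 counts in all 6 libraries. At the depth of the 6 libraries together this allows up to 0.177 CPM, the value of 3 counts. The limit covers counting error only. Of the PAR bZIP genes, Tef thus supplied most counts, with 2.68 to 6.10 Tef counts for each Dbp count in a library.

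Nfil3 (ENSMUSG00000056749; chr13:52967209-52981073, minus strand), the D-box repressor, divided the libraries, but not by treatment. It had 12.8, 4.57 and 6.42 CPM in the CK1i libraries against 9.58, 5.99 and 12.7 CPM in the CTRL libraries. CK1i replicate 1 and CTRL replicates 1 and 3 were high, with 27 to 39 counts, and the other 3 libraries low, with 14 to 16 counts. The log2 fold change was -0.25 ± 0.39 (SE; 95% interval -1.09 to 0.59; edgeR adjusted p = 0.999). This interval holds a 2-fold lower level and, with that of Bhlhe40, is the widest of the members. Without CK1i replicate 1 the value was -0.81, and without CK1i replicate 2 it was 0.036.

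The 3 libraries with high Nfil3 were also the 3 with the highest scores for immediate early and dissociation genes (mean log2 CPM of 17 tested members such as Fos, Egr1 and Klf6). The scores were 9.52 in CK1i replicate 1, 9.08 in CTRL replicate 1 and 8.72 in CTRL replicate 3. They were 8.09 and 8.11 in CK1i replicates 2 and 3 and 7.91 in CTRL replicate 2. The clock gene Per1, which glucocorticoids also induce, had the same libraries on top, with 117, 114 and 119 CPM in those 3 and 31.0, 33.7 and 45.1 CPM in the others. Tsc22d3, a glucocorticoid-induced gene, had 1210, 1307 and 843 CPM against 475, 414 and 608 CPM. The whole glucocorticoid-responsive list, Per1 and Tsc22d3 included, scored 6.92, 6.82 and 6.55 in those 3 libraries and 5.94, 6.04 and 6.38 in the others. Its tested genes were not uniform. Klf9, Sgk1 and Dusp1 also had those libraries on top, but Fkbp5, Cxcr4, Txnip and Ddit4 did not. Ddit4 ran the other way, with 135, 134 and 139 CPM in those 3 libraries against 152, 153 and 206 CPM. The part of either response in the Nfil3 levels was not tested. The same 3 libraries were also the highest on the first principal component of all tested genes, which held 28.0% of the variance. They lay at 31.4 (CTRL replicate 1), 4.68 (CTRL replicate 3) and -0.17 (CK1i replicate 1), against -11.6 to -12.4 in the others. The split was thus not particular to Nfil3 or to these lists, and the share of all genes that follow it was not counted. Dbp was lowest in the library with the highest immediate early score and highest in the library with the lowest, but its spread over the libraries did not exceed counting error, as given with the spread of the other members.

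**Figure D3:**
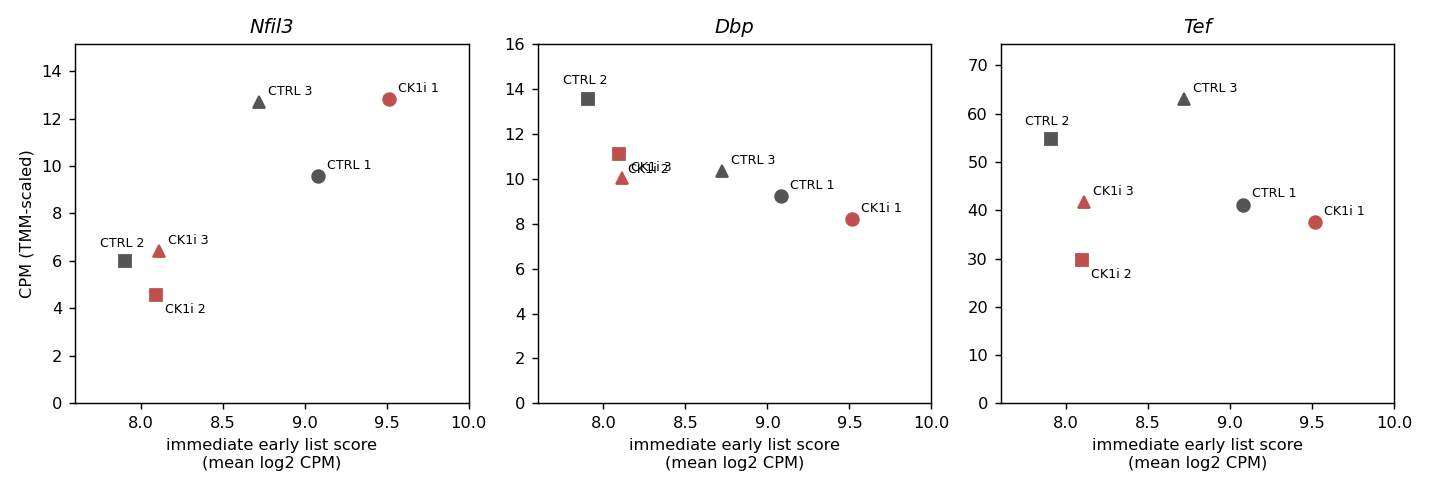
Level of Nfil3, Dbp and Tef in each library (y axis, CPM from 0) against that library's score for immediate early and dissociation genes (x axis, mean log2 CPM); black points are CTRL and red points CK1i, labelled by replicate. Nfil3 is at 9.58 CPM or above in the 3 libraries with scores of 8.72 or more and at 6.42 CPM or below in the other 3, and the high libraries come from both groups.

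Of the REV-ERB receptors only Nr1d2 had enough counts to be tested. Nr1d2 (ENSMUSG00000021775; chr14:18204054-18239127, minus strand), which encodes REV-ERB beta, had 23.4, 22.5 and 34.5 CPM in the CK1i libraries against 31.6, 18.8 and 22.0 CPM in the CTRL libraries. Each group held 1 high library, CK1i replicate 3 and CTRL replicate 1, and the groups overlapped, with CK1i replicate 3 the highest library and CTRL replicate 2 the lowest. It was the 1 tested member with a log2 fold change above 0, at 0.14 ± 0.24 (SE; 95% interval -0.37 to 0.65; edgeR adjusted p = 0.999). The sign was not stable: leaving out CK1i replicate 3 gave -0.084, and leaving out CTRL replicate 1 gave 0.38.

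Nr1d1 (ENSMUSG00000020889; chr11:98767932-98775333, minus strand), which encodes REV-ERB alpha, had 0 counts in all 3 CK1i libraries and 1, 1 and 2 counts in the CTRL libraries. Over the group, the CK1i libraries allow up to 0.349 CPM at 3 counts. The pooled CTRL level was 0.481 CPM at 4 counts, with an exact 95% Poisson interval of 0.131 to 1.23 CPM for counting error only. That interval holds the CK1i limit, but setting an interval beside a limit is not a test of a difference. The 4 counts in all are too few to decide whether the groups differ. With no filter on low counts, edgeR gave Nr1d1 an unadjusted p of 0.0495 and an adjusted p of 0.825. The libraries held 428 Nr1d2 counts for the 4 of Nr1d1. Nr1d1 and the neighbouring gene Thra overlap on opposite strands over 263 exonic bases, and Thra had 0 counts. The strand setting of the counting is not stated, so the Nr1d1 count, like that of Dbp, is uncertain, and so are the limit and the comparison with Nr1d2.

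Rora (ENSMUSG00000032238; chr9:68653786-69388246, plus strand), the activator at the RRE, had 3, 2 and 1 counts in the CK1i libraries against 2, 3 and 1 in the CTRL libraries. Its pooled level over the 6 libraries was 0.709 CPM, with an exact 95% Poisson interval of 0.367 to 1.24 CPM. Both groups held 6 counts. The related receptor Rorb had 0 counts. Rora is also expressed by T cells and innate lymphoid cells. All 11 T-cell markers had at least 1 count, but Cd3e, Cd4 and Cd8a had only 6, 4 and 5 counts over the 6 libraries, and Cd4 was seen in CK1i replicate 3 alone. Of the 10 markers of NK and innate lymphoid cells, 3 (Ncr1, Gzmb and Il1rl1) were at 0, and that list summed to between 0.334 and 1.96 CPM in a library. The part of such cells in the Rora counts was not tested.

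The DEC factors were counted at very unequal levels. Bhlhe41 (ENSMUSG00000030256; chr6:145858243-145865558, minus strand), which encodes DEC2, had 547, 561 and 574 CPM in the CK1i libraries against 545, 618 and 605 CPM in the CTRL libraries. The 6 libraries lay within 1.13 times of each other, and the groups overlapped through CTRL replicate 1. The log2 fold change was -0.072 ± 0.14 (SE; 95% interval -0.36 to 0.22; edgeR adjusted p = 0.999). This was the narrowest interval of the 7, and it excludes a level in CK1i that is 1.28 times lower or more. A gene model on the opposite strand, Gm43909, shares 1280 exonic bases with Bhlhe41 and held 81 counts, beside 9707 for Bhlhe41. The Bhlhe41 level and its ratio to Bhlhe40 thus also rest on the strand setting, which is not stated.

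Bhlhe40 (ENSMUSG00000030103; chr6:108660629-108666925, plus strand), which encodes DEC1, had 21, 8 and 15 counts in the CK1i libraries against 14, 22 and 19 in the CTRL libraries. These are 6.91, 2.61 and 6.02 CPM against 4.97, 8.78 and 6.34 CPM. The lowest library was CK1i replicate 2, and the other CK1i libraries lay within the CTRL range. The log2 fold change was -0.37 ± 0.39 (SE; 95% interval -1.21 to 0.47; edgeR adjusted p = 0.999), and -0.037 without CK1i replicate 2. In total there were 98.1 Bhlhe41 counts for each Bhlhe40 count, with a range over the libraries from 70.3 to 215, the highest being CK1i replicate 2.

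Ciart (ENSMUSG00000038550; chr3:95878503-95882251, minus strand) had 8.88, 7.50 and 11.2 CPM in the CK1i libraries against 12.1, 9.58 and 7.34 CPM in the CTRL libraries. The highest and the lowest library were both CTRL. The log2 fold change was -0.078 ± 0.29 (SE; 95% interval -0.70 to 0.55; edgeR adjusted p = 0.9996). Leaving out CTRL replicate 1 gave 0.12, and leaving out CK1i replicate 2 gave 0.048. Ciart, Tef and Bhlhe41, the genes with an E-box in the windows printed above, thus had log2 fold changes of -0.078, -0.55 and -0.072.

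**Figure D4:**
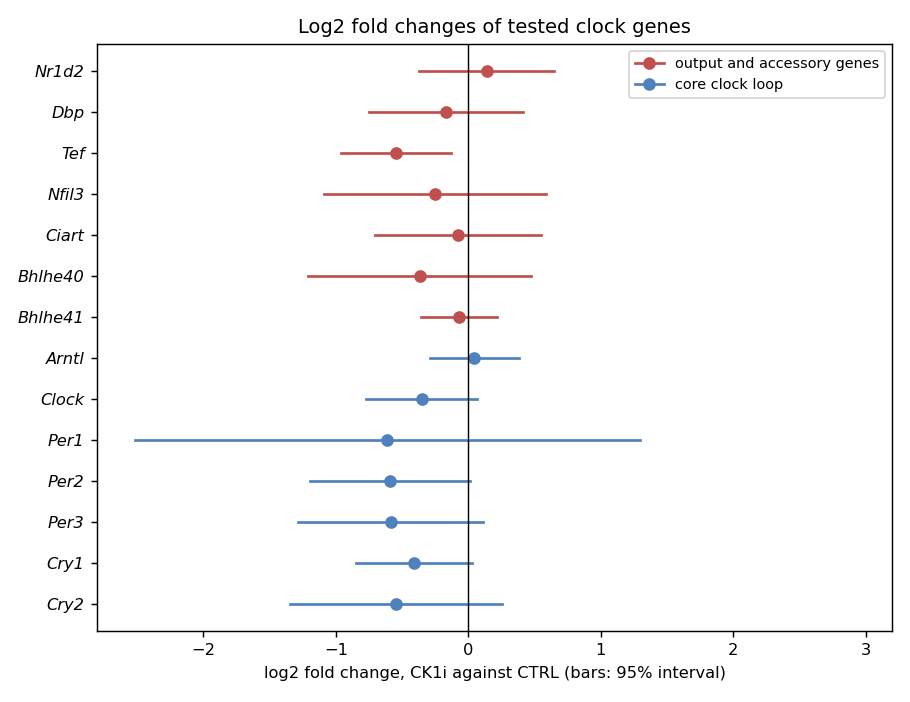
Log2 fold change of CK1i against CTRL (x axis) for the 7 tested output and accessory genes (red) and the 7 tested genes of the core loop (blue), with 95% intervals from edgeR's quasi-likelihood fit as bars. Of the red genes only Tef, at -0.55, has an interval that leaves out 0, and no gene shown passes the adjusted threshold.

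The members differed in how far their spread exceeded counting error. For Dbp the coefficient of variation (CV) over the 6 libraries was 17.6%, where counting alone gives 18.5%, and for Ciart it was 20.4% where counting gives 19.5%. The libraries thus cannot be told apart in these genes at this depth. Nfil3 had a CV of 41.0% where counting gives 20.1%. Tef had 27.2% against 8.94%, and Nr1d2 24.1% against 11.8%. For Bhlhe40 the CV was 34.7% against 24.6%. Bhlhe41 had the smallest CV, 5.25%, against 2.49% from counting. If UMIs were not collapsed before counting, counting error is larger than these figures.

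**Figure D5:**
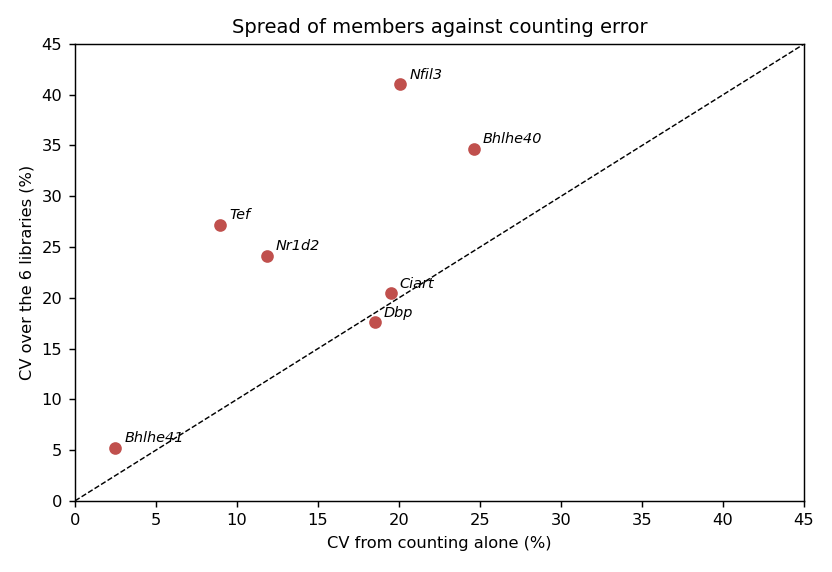
Coefficient of variation of the level over the 6 libraries (y axis, percent) against the value that counting alone would give (x axis, percent) for the 7 tested members; the dashed line marks equality. Dbp and Ciart lie at the line, and Nfil3, Tef and Nr1d2 lie farthest above it.

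The genes with the most similar pattern over the 6 libraries were found for the 3 members with a mean of at least 20 CPM, among 6521 other genes of that level. They were Samm50 (r = 0.995) and Ap2b1 (r = 0.973) for Bhlhe41, Dpm2 (0.983) and Mrpl3 (0.976) for Tef, and Idnk (0.984) and Zbtb33 (0.980) for Nr1d2. These are Pearson correlations of log2 CPM over 6 libraries that share their depth and the group labels. For Bhlhe41, 60 genes had an r above 0.9, and for Tef and Nr1d2 39 genes each, so such values are common with 6 points.

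The core loop that drives these genes was measured in the same libraries. Of its 9 genes 7 were tested, 6 with a value below 0, against 51.2% of all tested genes. The median log2 fold change was -0.55, against -0.0055 over all tested genes. None of the 7 core genes passed, and 0 had an unadjusted edgeR p under 0.05, where 4.70% of all tested genes did. The median was -0.28 without CTRL replicate 1, the library that stood apart, and -0.34 without CK1i replicate 2. Without CTRL replicate 1, Per2 had -0.36, Per3 -0.33, Cry2 -0.19 and Clock -0.14. Per2 had a log2 fold change of -0.59 ± 0.28 and Per3 -0.59 ± 0.33 (SE). For Per1 the value was -0.61 ± 0.72, with the split of libraries already described, and -1.53 without CK1i replicate 1 (edgeR unadjusted p = 0.0064, adjusted p = 0.643). Cry1 had -0.41 ± 0.20 and Cry2 -0.55 ± 0.37, and Clock had -0.35 ± 0.20. Arntl, the main target of the REV-ERB receptors, had 0.045 ± 0.16 with means of 63.8 ± 9.20 CPM for CK1i and 61.8 ± 4.56 CPM for CTRL (SD, n = 3). Arntl2 had 0 counts and Npas2 had 1. Per2 was the 1 core gene in which all CK1i libraries lay below all CTRL libraries, at 7.18 to 8.42 against 9.68 to 15.3 CPM. It held 21 to 43 counts in a library, and 4.48% of all tested genes had groups apart in that direction.

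Partners of the REV-ERB receptors were well expressed. Of 8 genes of the corepressor and ROR list 6 were tested, 1 below and 5 above 0, with a median log2 fold change of 0.090. Without CK1i replicate 2, or without any 1 of the CTRL libraries, 2 of these genes were below 0. Ncor1, the corepressor that REV-ERB recruits, averaged 503.9 ± 22.0 CPM for CK1i and 485 ± 60.6 CPM for CTRL (SD, n = 3). Tbl1xr1, a subunit of the corepressor complex, had 0.13 ± 0.14 (SE). Of 12 listed REV-ERB targets 6 were tested, and 4 had values below 0, with a median of -0.18. Without CK1i replicate 2 the count was 2. Nfil3, Arntl, Clock and Cry1 are among these 6, so the list is not separate from those above. Il10, a cytokine that B-1 cells make, had -0.12 ± 0.28.

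Genes that clocks drive in many tissues showed no common direction. Of 14 tested genes of that list 8 were below and 6 above 0, and the median was -0.042 on the log2 scale. The smallest p values were those of Cdkn1a, a cell cycle inhibitor, with -0.35 ± 0.17, and Id2, with 0.27 ± 0.16 (SE). Wee1, a cell cycle kinase and clock target, had 0.14 ± 0.19. The cold-inducible Rbm3 had groups that did not overlap, with 15.5 to 20.1 CPM in CK1i and 11.6 to 15.3 CPM in CTRL, and was named after its values were seen. Among all tested genes 5.22% had such groups with CK1i higher. Among clock kinases and ubiquitin ligases 9 of 12 tested genes were below 0, with a median of -0.14, and Csnk1e had -0.30 ± 0.19 (SE). Glucocorticoid-responsive genes had 6 of 9 below 0 and a median of -0.32, with Fkbp5 at -0.32 ± 0.23 and Klf9 at -0.42 ± 0.32. Immediate early genes had 11 of 17 below 0 and a median of -0.052, with Egr3 at -0.59 ± 0.37 and Btg2 at 0.17 ± 0.13. Single libraries decided that count: it was 1 without CK1i replicate 3, 2 without CK1i replicate 2, 4 without CTRL replicate 1, 7 without CTRL replicate 3 and 14 without CK1i replicate 1. No gene of these lists passed the adjusted threshold, and 0 had an unadjusted edgeR p under 0.05.

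Genes of the B-1a setting in which Bhlhe41 is known were also measured. Of 11 tested genes 4 were below and 7 above 0, and the median was 0.030 on the log2 scale. The list had 1 gene, Tcf7, with an unadjusted edgeR p under 0.05. Cd5, the surface marker of B-1a cells and CLL, averaged 29.6 ± 1.99 CPM for CK1i and 29.8 ± 4.25 CPM for CTRL (SD, n = 3). Il5ra, the receptor chain for interleukin 5, which sustains B-1 cells, had 115 ± 5.08 and 122 ± 26.3 CPM. The smallest p values were those of Tcf7, at 0.67 ± 0.26 (SE; edgeR adjusted p = 0.977), and Fcrl5, an Fc receptor-like gene, at 0.62 ± 0.31 (adjusted p = 0.999). Fcrl5 had groups that did not overlap, with 73.4 to 81.9 CPM in CK1i and 24.5 to 64.1 CPM in CTRL, the lowest being CTRL replicate 1. Such groups with CK1i higher were found in 5.22% of all tested genes. Of the 4 genes below 0, Zbtb32 had -0.38 ± 0.20 and Ctla4 -1.13 ± 0.70 (SE, edgeR adjusted p = 0.999 for each), with groups that overlapped. These 2 were named after their values were seen. Lin28b, which marks fetal-type lymphopoiesis, had 0 counts.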

How the data were processed

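The authors deposited raw gene counts for 6 libraries. Per the labels' protocols, these were QuantSeq FWD libraries of 3' ends that carry molecular identifiers (UMIs), read as single 75-base reads. The submitters' processing notes name STAR 2.7.3a, UMI-tools 1.1.1 and featureCounts 1.6.3 with GRCm38.p6. UMI collapse and strand setting are not given in the sources used here. Gene positions and overlaps came from GENCODE M21 (GRCm38), which matched 54165 of 54232 identifiers. Promoters came from RefSeq; protein sequences were not used.

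The counts were fitted with edgeR 4.0.16 (R 4.3.3): filterByExpr (minimum count 10, minimum total 15), TMM scaling, the robust quasi-likelihood F test, and Benjamini-Hochberg adjustment over all 10067 tested genes, with a threshold of 0.05. The SE is the log2 fold change divided by the root of F, and intervals are 95%. Log2 CPM uses a prior count of 2. Alternatives were DESeq2 1.42.0 on the same genes, limma-voom (limma 3.58.1), DESeq2 size factors, no filter, a minimum count of 20, and leaving out each library. The procedure was tested on simulated data. It called 11 of 50 genes changed 1.5-fold (22%) and 37 of 49 genes changed 2-fold (75.5%), in the right direction. The same simulated data held 49 genes changed 3-fold and 50 changed 4-fold, which eases the adjusted threshold for all genes. Each gene was drawn on its own from its fitted dispersion, without effects shared by the genes of a library. These shares therefore do not give the power in the real libraries, where no gene passed. The members and lists were chosen with earlier results of these data known. Named genes are all members, the core clock genes, overlapping genes, the 2 genes of each gene list with the smallest p, the 2 genes most like each member above 20 CPM, and, for context, genes named for their role in a list. Some genes that this rule names are not reported here.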

Additional observations from a re-analysis of the deposited data

How the results depend on the processing

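Over 11 alternatives, 76 values of the 7 tested members were computed, and in none was a member called. The direction changed in 6 of them, each on leaving out 1 library. Nr1d2 turned to -0.084 without CK1i replicate 3 and -0.015 without CTRL replicate 2, over a range of -0.084 to 0.38. Nfil3 turned to 0.036 without CK1i replicate 2 and 0.027 without CTRL replicate 3, over a range of -0.81 to 0.036. Ciart turned to 0.048 without CK1i replicate 2 and 0.12 without CTRL replicate 1, over a range of -0.25 to 0.12. Among 76 values of core clock genes, 1 turned: Arntl, to -0.059 without CK1i replicate 3, over a range of -0.059 to 0.15. The cause was not tested.

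Of the 7 members, between 4 and 7 had values below 0 when 1 library was left out. The number of members with an unadjusted p under 0.05 was 2 with no filter, which lets Nr1d1 be tested, and 0 to 1 with 1 library left out. Over all genes, 763 of 18826 had such a p with no filter. With 1 library left out, 349 to 692 of the 10207 to 10277 genes tested did. Over all genes, the number called was 8 in DESeq2, 3 with no filter, and 0 to 1 with 1 library left out. The stricter filter removed Bhlhe40. DESeq2 size factors gave a median over all genes of -0.0075, against -0.0055 with TMM. No paired analysis was possible because the labels give no replicate number that the groups share. Depth limits Nr1d1, Rora and Hlf to levels and upper limits, and leaves Dbp and Ciart at counting error. Nr1d1, Dbp, Tef, Rora, Bhlhe40 and Bhlhe41 share exonic bases with a gene on the opposite strand. Their counts also rest on a strand setting that is not stated.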
